A study of Mus musculus with 10 samples.

Results

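Genes of thyroid and corticosteroid hormone signalling were examined in heart muscle cells (cardiomyocytes) of young mice with both alleles or 1 allele of Actn2 targeted. Actn2 is the gene of the Z-disc crosslinker alpha-actinin-2. The group holds 9 genes chosen by name: the thyroid hormone receptors Thra and Thrb, the thyroid hormone transporter Slc16a10, the deiodinases Dio2 and Dio3, the glucocorticoid receptor Nr3c1, the mineralocorticoid receptor Nr3c2, and the glucocorticoid-induced genes Fkbp5 and Tsc22d3. All 9 were among the 23337 genes of the counts table, and 8 of them were among the 11870 genes that passed a filter on low counts. Knockout animals were Actn2 F/F, that is, with both alleles floxed (flanked by sites that Cre recombinase cuts). Heterozygote animals were Actn2 F/+, with a floxed and a normal allele, and served as the controls. All animals in both groups were injected on postnatal day 1 with AAV9-cTNT-Cre, an adeno-associated virus in which the promoter of cardiac troponin T drives Cre, at 3.6e+08 vector genomes per gram. The controls therefore carried Cre and the virus too, and deletion was directed to cells in which that promoter is active. The floxed allele of the controls was exposed to Cre as well, so the comparison is not with cells that have both alleles intact. Cells were taken on postnatal day 14 by collagenase perfusion of the heart and sorted by fluorescence, and RNA of 5 animals per group was sequenced.

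Thyroid hormone enters cells through membrane transporters. Dio2 converts the prohormone T4 into the active hormone T3, and Dio3 inactivates both. T3 binds the nuclear receptors encoded by Thra and Thrb, which sit on DNA as dimers with retinoid X receptors and exchange corepressors for coactivators when hormone is bound, and in rodent heart it is known for the change from beta to alpha myosin heavy chain after birth. Glucocorticoids and mineralocorticoids bind Nr3c1 and Nr3c2, which are held by Hsp90 chaperones in the cytoplasm, move to the nucleus with hormone and raise genes such as Fkbp5 and Tsc22d3. Both hormone systems are known for their part in the maturation of cardiomyocytes around and after birth.

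Actn2 itself was read at normalised read counts (CPM, counts over the scaled library total) of 2677 to 3474 in the heterozygotes and of 1145 to 1286 CPM in the knockouts, so the groups did not overlap. Its log2 fold change, knockout against heterozygote, was -1.39 ± 0.0910 (SE, adjusted p = 3.48e-07 by edgeR's quasi-likelihood test). Total counts ran from 8086656 to 25237696 per library. Over all tested genes, 18.9% were called at an adjusted p below 0.05 in that test, 10.2% higher and 8.64% lower in the knockout. Scaling by library totals alone turned the 1216 higher and 1025 lower calls into 1684 and 760, and moved the median log2 fold change of all genes to 0.084. Summed cardiomyocyte markers stood at 94603 to 118886 CPM in the heterozygotes and 90987 to 116495 CPM in the knockouts, and 0 of 8 were called higher and 1 lower. The sums were 637 to 1122 against 402 to 708 CPM for endothelial markers, of which 1 of 9 was called lower, and 12.1 to 35.2 against 7.70 to 10.9 CPM for leukocyte markers, of which 1 of 4 was called lower and whose groups did not overlap. Fibroblast markers summed to 330 to 538 against 318 to 648 CPM. Mural markers summed to 473 to 698 against 539 to 695 CPM, and 1 of 7 was called higher. Atrial markers summed to 4.03 to 69.4 against 16.2 to 335 CPM, with knockout 5 highest. Every marker of these cell types in the table had counts in some sample, whereas 4 of 6 erythroid markers (Hba-a1, Hba-a2, Hbb-b1 and Hbb-b2) had 0 in all. The counting dropped multi-mapping reads and reads over more than 1 gene, so these 0 counts were not taken as a measure of blood cells. Since each library is a bulk sample, fewer cells of a type and less RNA per cell cannot be told apart.

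Of the 8 hormone genes tested, Dio2, Nr3c1 and Tsc22d3 were called higher in the knockout (10.2% of all tested genes were) and Slc16a10 was called lower (8.64% of all were). In 2 genes the values of the groups did not overlap: every knockout animal was above every heterozygote for Tsc22d3 (8.41% of all tested genes) and below for Slc16a10 (6.32% of all). These are counts over 8 genes that passed the filter. Dio2 passed it mainly through the group where it was high, with 4 knockouts and 1 heterozygote at its threshold. Its call therefore adds no support to the count. When the summed endothelial markers were added to the model as a covariate, the calls among these genes fell from 4 to 1, which was Tsc22d3. Over all 11870 tested genes they fell from 2241 to 1368. With the covariate the log2 fold changes of Slc16a10, Dio2 and Nr3c1 were -0.50 ± 0.179, 1.68 ± 0.607 and 0.36 ± 0.130 (SE). Their adjusted p values were 0.0978, 0.0970 and 0.0971 by edgeR. Without it they were -0.54 ± 0.140, 1.69 ± 0.460 and 0.31 ± 0.0998, so these 3 estimates moved little while the SE grew. Thra, which was not called, moved from 0.09 to -0.12, and the median of the 8 genes from 0.076 to -0.0073. The endothelial sums differed between the groups with overlap (median 645 against 547 CPM). The covariate and the genotype were therefore not independent. The part of the leukocyte markers in these results was not tested.

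**Figure D1:**
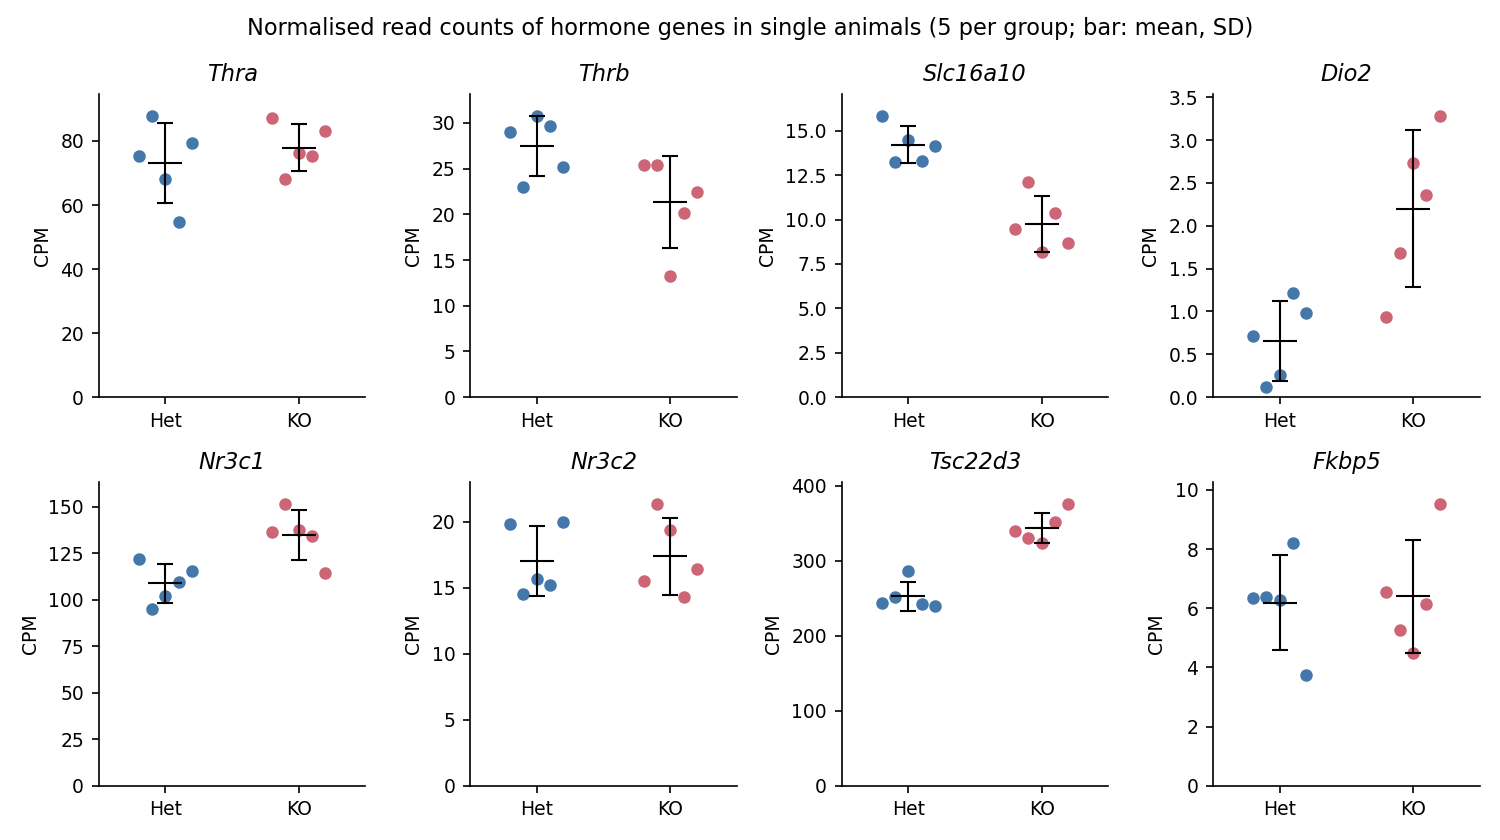
Normalised read counts (CPM) of the 8 hormone genes with reads in each of the 5 heterozygote and 5 knockout animals, with a bar at the mean and whiskers of 1 SD. Each panel has its own linear axis from 0. All 5 knockout points lie above the heterozygotes for Tsc22d3 and below them for Slc16a10. Dio3, at 0 in all 10 animals, is not drawn.

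To set levels of different genes side by side, CPM was divided by the exonic length used for counting. In the heterozygotes Tsc22d3 was highest at 101.5 ± 7.72 CPM per kilobase (SD, n = 5), followed by Thra at 32.5 ± 5.57 and Nr3c1 at 17.2 ± 1.67, each separated from the next in every animal. Thrb at 4.20 ± 0.502 and Nr3c2 at 4.17 ± 0.652 CPM per kilobase overlapped. Slc16a10 at 2.17 ± 0.160 and Fkbp5 at 1.77 ± 0.455 overlapped as well, and Dio2 stood at 0.113 ± 0.0804. The receptor gene with more reads per length in each pair was Thra for thyroid hormone and Nr3c1 for corticosteroids. The reads of Thra pool its forms, of which alpha2 does not bind T3, as set out below. The knockouts kept the first 3 places, with Tsc22d3 at 138 ± 8.14, Thra at 34.7 ± 3.28 and Nr3c1 at 21.3 ± 2.10 CPM per kilobase. Below them came Nr3c2 at 4.25 ± 0.710, Thrb at 3.26 ± 0.767, Fkbp5 at 1.82 ± 0.546 and Slc16a10 at 1.49 ± 0.239, and the ranges of each neighbouring pair among these overlapped. Within animals, Thrb was above Fkbp5 in 5 of 5 knockouts.

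**Figure D2:**
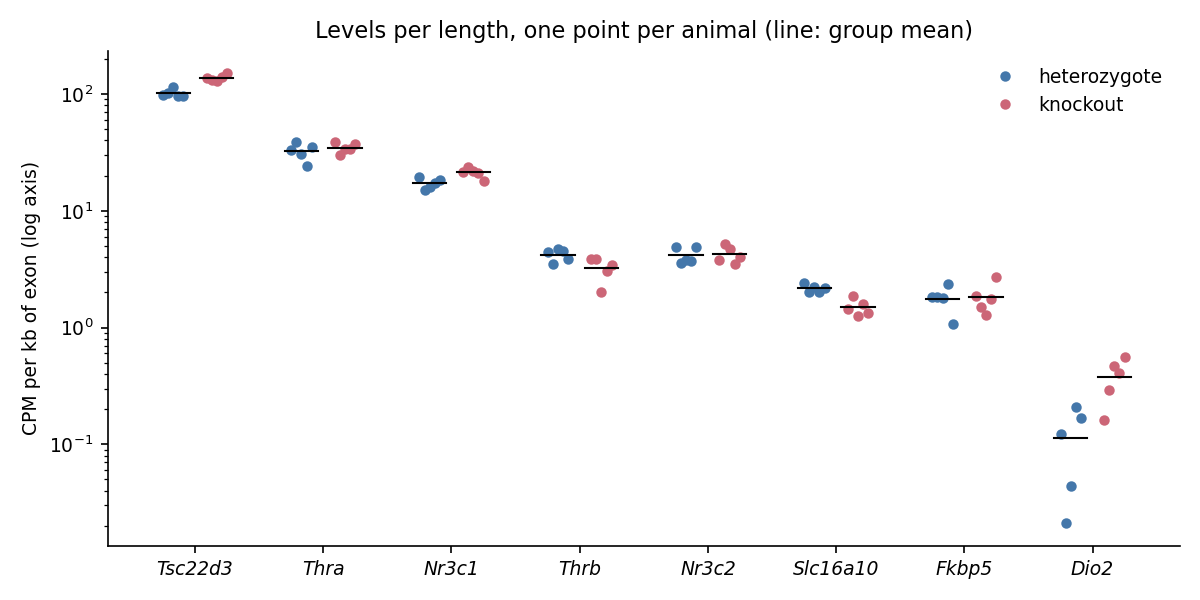
Levels of the hormone genes in CPM per kilobase of exon on a logarithmic axis, 1 point per animal, heterozygotes and knockouts apart, with a line at the group mean. Tsc22d3, Thra and Nr3c1 take the highest 3 places in both groups, and Dio2 is the lowest gene with reads.

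Slc16a10, also known as MCT10, carries thyroid hormones and aromatic amino acids across the membrane. The gene lies on chromosome 10 from 40033535 to 40142254 on the minus strand (build mm10), in 7 exon intervals. Its level was 15.8, 13.3, 14.5, 13.3 and 14.2 CPM across heterozygotes 1 to 5 and 9.48, 12.1, 8.19, 10.4 and 8.66 CPM across knockouts 1 to 5. Every knockout was below every heterozygote, with knockout 2 closest to them. The transcript fell by 0.54 ± 0.140 on the log2 scale (SE; by edgeR, adjusted p = 0.0144), a ratio of 0.686 with a 95% interval from 0.557 to 0.845. The adjusted p stayed below 0.05 when any single animal was left out (edgeR, at most 0.0432).

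Other genes of thyroid hormone transport and metabolism were mostly low: 4 of 7 could be tested, 1 was called higher and 0 lower (10.2% and 8.64% of all tested genes), and their median log2 fold change was 0.14 (0.0023 over all tested genes). The gene called was Slc7a5, the LAT1 amino acid transporter, which rose from 6.63 ± 0.977 to 12.2 ± 3.16 CPM without overlap (log2 fold change 0.87 ± 0.198, adjusted p = 0.00683 by edgeR). Its heavy chain partner Slc3a2 was at 57.6 ± 24.6 and 50.3 ± 15.99 CPM and was not called (edgeR, adjusted p = 0.668). Dio1, a further deiodinase, had 0 counts in every animal.

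Dio2 is encoded on chromosome 12 from 90724552 to 90738438 on the minus strand, in 2 exon intervals. Its reads were few, 17, 1, 2, 11 and 10 across heterozygotes 1 to 5 and 9, 22, 28, 23 and 58 across knockouts 1 to 5, or 41 against 140 in all. In normalised form these were 0.71, 0.12, 0.26, 1.22 and 0.98 CPM against 0.94, 1.68, 2.73, 2.36 and 3.28 CPM. Knockouts 2 to 5 were above the highest heterozygote, while knockout 1 lay within the heterozygote range. The transcript rose by 1.69 ± 0.460 on the log2 scale (SE; by edgeR, adjusted p = 0.0193), a ratio of 3.23 with a 95% interval from 1.63 to 6.39. It entered the test only because 4 knockouts and 1 heterozygote reached the filter's threshold of 1.01 CPM. Without knockout 5 the log2 fold change was 1.48 and the call was lost (edgeR, adjusted p = 0.0552). This animal also had the highest atrial marker sum, whose bearing on Dio2 was not tested.

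Transcription of Dio2 is known to be raised by cyclic AMP through an element in its promoter, so the promoter of RefSeq's transcript start is shown here, from 250 bases before to 50 bases after the start (GRCm38.p6, minus strand, 5′ to 3′). Capitals mark a cyclic AMP response element, TGACGTCA, 95 bases before the start, and a TATA box, TATAAA, 30 bases before it. This start lies upstream of the end of the gene used for counting.
Dio2, chr12:90738989-90739288: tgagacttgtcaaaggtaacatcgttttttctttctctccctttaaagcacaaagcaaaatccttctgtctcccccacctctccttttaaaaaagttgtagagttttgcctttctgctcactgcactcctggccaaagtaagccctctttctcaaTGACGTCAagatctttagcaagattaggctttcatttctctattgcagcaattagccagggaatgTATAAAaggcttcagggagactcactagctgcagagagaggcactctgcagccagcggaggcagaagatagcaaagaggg
TGACGTCA was found in 1 of 10 promoter windows of the hormone genes, and in 1.79% of 32851 mouse promoters of the same length searched on both strands. TATAAA was found in 3 of 10 windows, those of Dio2 and Dio3 and 1 of Thrb, and in 13.6% of all promoters.

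Dio3, on chromosome 12 from 110279230 to 110281097 on the plus strand, had 0 counts in all 10 animals. A count of 0 allowed up to 0.126 to 0.384 CPM per library (3 counts of the total, counting error only), so no difference between the groups could be measured at this depth.

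Thra lies on chromosome 11 from 98741873 to 98765111 on the plus strand, in 9 exon intervals. It was read at 75.2, 87.8, 68.2, 54.6 and 79.4 CPM across heterozygotes 1 to 5 and 87.0, 68.1, 76.1, 75.2 and 83.2 CPM across knockouts 1 to 5. The groups overlapped, with heterozygote 4 lowest and heterozygote 2 highest of all 10. The log2 fold change was 0.09 ± 0.120 (SE, adjusted p = 0.646 by edgeR), and the 95% interval of the ratio ran from 0.892 to 1.28. Thra encodes the hormone-binding receptor alpha1 and the splice form alpha2, which does not bind T3. In the GENCODE annotation of the same build, the transcript of 410 residues ends with the exon from 98764278 to 98765111, which the counting annotation includes. The transcript of 492 residues ends with the exon from 98768157 to 98769006, which overlaps Nr1d1 on the opposite strand and lies beyond the counted gene. The remaining exons of both were counted together, so the levels above do not separate the forms.

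Thrb lies on chromosome 14 from 17660960 to 18038088 on the plus strand, in 11 exon intervals. Its level was 29.0, 22.96, 30.8, 29.6 and 25.2 CPM across heterozygotes 1 to 5 and 25.4, 25.4, 13.3, 20.1 and 22.5 CPM across knockouts 1 to 5. Knockouts 3, 4 and 5 were below the lowest heterozygote, and the other knockouts lay within the heterozygote range. With a log2 fold change of -0.36 ± 0.161 (SE), the difference was not called after adjustment (edgeR, unadjusted p = 0.0398, adjusted p = 0.133). The 95% interval of the ratio ran from 0.611 to 0.987.

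Reads of Thrb made up 27.8% ± 5.68 of the reads of both thyroid hormone receptor genes in the heterozygotes (SD, n = 5, 20.7% to 35.2%) and 21.4% ± 4.41 in the knockouts (14.8% to 27.2%). The lowest share was in knockout 3, with a Wilson 95% interval from 12.7% to 17.3%, and the highest in heterozygote 4, from 31.9% to 38.6%. The groups overlapped, and no test was made of this ratio. With counts divided by exonic length, the shares were 11.8% ± 2.93 and 8.59% ± 2.04. Since the reads of Thra pool alpha1 and alpha2, these are not shares among receptors that bind T3.

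**Figure D3:**
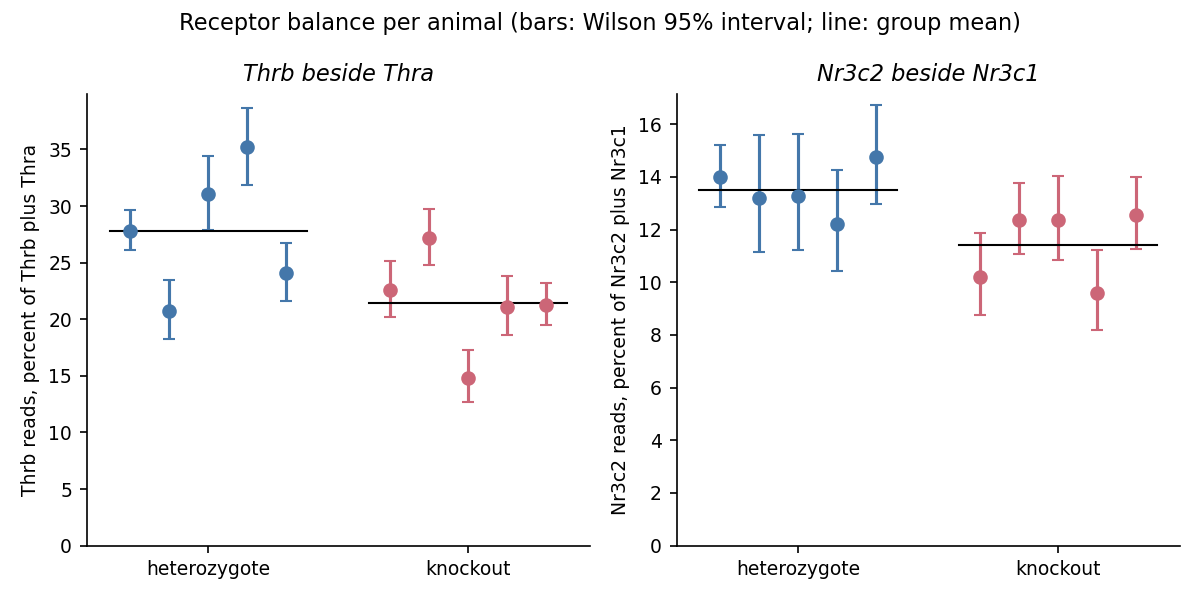
Share of Thrb in the reads of Thrb and Thra, and of Nr3c2 in the reads of Nr3c2 and Nr3c1, in percent for each animal, with a line at the group mean and Wilson 95% intervals that cover counting error only. The groups overlap in both panels, with knockout 3 lowest for Thrb at 14.8% and knockout 4 lowest for Nr3c2 at 9.59%.

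All 15 genes of the list of receptor partners and coregulators were tested, and 4 were called higher and 2 lower (10.2% and 8.64% of all tested genes), with a median log2 fold change of 0.13. The retinoid X receptor Rxrg, a dimer partner of the thyroid hormone receptors, fell from 98.5 ± 17.8 CPM (76.9 to 124) to 28.5 ± 7.21 CPM (21.2 to 37.4), a log2 fold change of -1.79 ± 0.171 (SE, adjusted p = 9.29e-06 by edgeR). Hdac3, the deacetylase of the corepressor complex, fell from 105 ± 7.34 to 81.1 ± 6.80 CPM (adjusted p = 0.00850 by edgeR). The corepressor Ncor1 was at 120 CPM in both groups and was not called (edgeR, adjusted p = 0.969). Ncor1 shares exon sequence with Ttc19, so its counts are uncertain. The acetyltransferase Ep300 rose from 24.8 ± 2.09 to 38.9 ± 3.31 CPM without overlap (adjusted p = 0.000476 by edgeR). Tbl1xr1, of the corepressor complex, rose by a log2 fold change of 0.45 (edgeR, adjusted p = 0.0216), a call lost without knockout 2 (edgeR, adjusted p = 0.0602). The coactivator Ncoa2 rose by 0.35 (edgeR, adjusted p = 0.0253), a call lost without heterozygote 4 or 5 or knockout 2, 4 or 5 (edgeR, adjusted p = 0.0501 to 0.0672). With the endothelial covariate, 4 of the 6 calls of the list were left, and Ncoa2 was not among them (edgeR, adjusted p = 0.113).

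Among 12 genes that thyroid hormone is known to raise, 7 were called lower and 1 higher (8.64% and 10.2% of all tested genes). Their median log2 fold change was -0.58 against 0.0023 over all. Some are better known as targets outside the heart, as Hr is in brain. This list, like the others, was chosen with earlier results of these data known, so its counts are not independent of them. Kcnd2, a channel subunit of the transient outward potassium current, fell from 29.3 ± 6.90 CPM (17.3 to 34.5) to 4.86 ± 1.25 CPM (3.49 to 6.66), a log2 fold change of -2.60 ± 0.212 (SE, adjusted p = 2.00e-06 by edgeR). The pacemaker channel Hcn2 fell from 83.1 ± 19.1 to 34.0 ± 4.12 CPM (adjusted p = 4.63e-05 by edgeR). The glucose transporter GLUT4, encoded by Slc2a4, fell from 354 ± 58.4 to 207 ± 32.9 CPM (adjusted p = 0.00120 by edgeR). These 3 genes, and Me1, were lower without overlap between the groups, as were 6.32% of all tested genes. Me1, which makes NADPH for lipid synthesis, fell from 143 ± 16.9 to 97.7 ± 5.10 CPM (adjusted p = 0.00117 by edgeR), and its counts are uncertain because it shares exon sequence with A330041J22Rik.

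The other 3 that fell overlapped between the groups, and single animals decided their calls. Atp2a2, the calcium pump of the sarcoplasmic reticulum, fell by 0.40 on the log2 scale (adjusted p = 0.0243 by edgeR), and lost its call without heterozygote 1, 3 or 5 or knockout 3 or 4 (edgeR, adjusted p = 0.0541 to 0.0719) and with library-total scaling (edgeR, adjusted p = 0.0565). Ucp3, a mitochondrial carrier, fell by 0.65 (adjusted p = 0.0206 by edgeR) and lost its call without knockout 2 or 3 (edgeR, adjusted p = 0.0503 to 0.0520). Thrsp, a lipogenic gene named for its response to thyroid hormone, fell by 0.72 (adjusted p = 0.0457 by edgeR), a call lost without heterozygote 1, 2, 3 or 5 or knockout 2 or 5 (edgeR, adjusted p = 0.0535 to 0.106), with library-total scaling (edgeR, adjusted p = 0.0639) and with no filter (edgeR, adjusted p = 0.0511). Hr, a nuclear corepressor that is itself a direct thyroid hormone target in brain, went the other way, from 16.2 ± 7.91 CPM (10.2 to 26.3) to 55.6 ± 19.9 CPM (32.0 to 84.8), a log2 fold change of 1.80 ± 0.307 (SE, adjusted p = 0.00104 by edgeR). Alpha myosin heavy chain, Myh6, was at 42621 ± 8893 CPM and 41568 ± 7002 CPM and was not called (edgeR, adjusted p = 0.893). The transcription factor Klf9, a direct target of both T3 and glucocorticoids, was at 97.8 ± 13.2 and 82.2 ± 6.82 CPM (edgeR, adjusted p = 0.114). With the endothelial covariate, 6 of the 8 calls of the list were left, without Atp2a2 (edgeR, adjusted p = 0.0542) and Thrsp (edgeR, adjusted p = 0.120).

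Of 6 cardiac genes that thyroid hormone is known to lower, 2 were called higher and 0 lower (10.2% and 8.64% of all tested genes), and the median log2 fold change was 0.07. Beta myosin heavy chain, Myh7, rose from 445 ± 316 CPM (90.5 to 751) to 6394 ± 2908 CPM (1699 to 8979), a log2 fold change of 3.85 ± 0.593 (SE, adjusted p = 0.000480 by edgeR). Its counts are uncertain because it shares exon sequence with D830015G02Rik. The adenylyl cyclase Adcy6 rose from 97.4 ± 8.06 to 122 ± 6.88 CPM (adjusted p = 0.0159 by edgeR), but was not called with the endothelial covariate (edgeR, adjusted p = 0.194). Phospholamban, Pln, the inhibitor of the calcium pump, was at 5882 ± 1381 and 5526 ± 384 CPM and was not called (edgeR, adjusted p = 0.708).

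**Figure D4:**
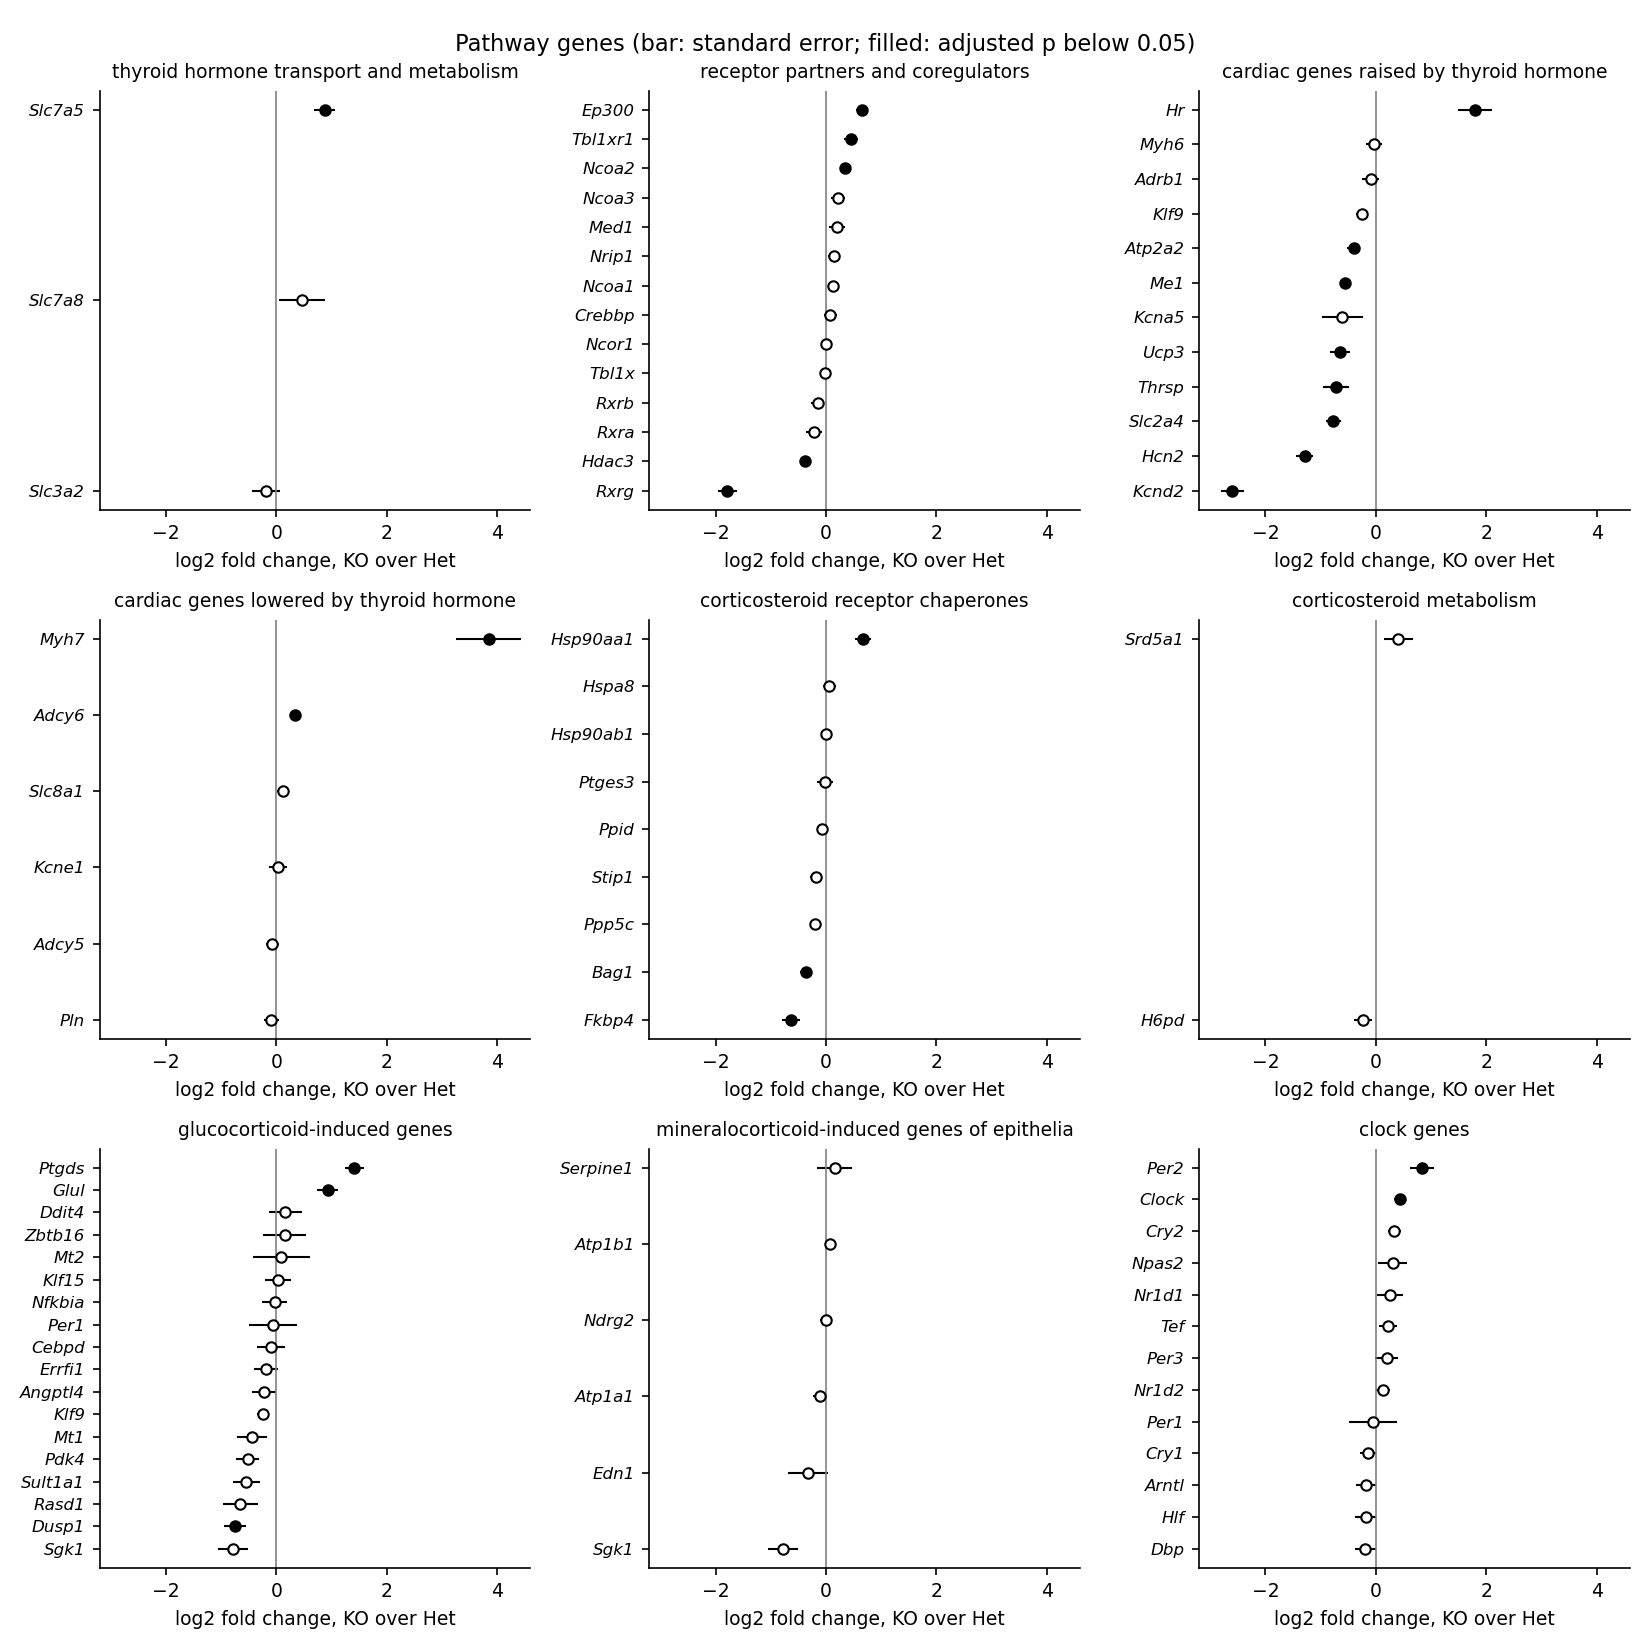
Log2 fold changes (knockout against heterozygote) of tested genes of each hormone list, 1 point per gene with bars of 1 SE, and filled points for genes called at an adjusted p below 0.05. Most called genes of the list raised by thyroid hormone lie left of 0, down to -2.60 for Kcnd2, while Myh7 at 3.85 lies farthest right.

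Nr3c1, the glucocorticoid receptor, lies on chromosome 18 from 39410545 to 39487245 on the minus strand, in 8 exon intervals. Heterozygotes 1 to 5 had 122, 95.3, 102, 109 and 115 CPM, and knockouts 1 to 5 had 137, 151, 138, 135 and 114 CPM. Knockouts 1 to 4 were above the highest heterozygote, while knockout 5 lay among the heterozygotes. The transcript rose by 0.31 ± 0.0998 on the log2 scale (SE; by edgeR, adjusted p = 0.0450), a ratio of 1.24 with a 95% interval from 1.07 to 1.44. The call stood near the threshold. It was lost in 8 of 10 fits that left out an animal, all but those without heterozygote 1 or knockout 5 (edgeR, adjusted p = 0.0595 to 0.105), with log2 fold changes from 0.26 to 0.36 over all 10. It was also lost in 6 of 10 further alternatives, whose values are given with the other processing choices.

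Nr3c2, the mineralocorticoid receptor, lies on chromosome 8 from 76902508 to 77243639 on the plus strand, in 9 exon intervals. It was read at 19.9, 14.5, 15.6, 15.2 and 19.97 CPM across heterozygotes 1 to 5 and 15.5, 21.3, 19.4, 14.3 and 16.4 CPM across knockouts 1 to 5. The groups covered nearly the same range, and the log2 fold change was 0.02 ± 0.147 (SE, adjusted p = 0.934 by edgeR), with a 95% interval of the ratio from 0.818 to 1.26. In reads, Nr3c2 took 13.5% ± 0.958 of the pair Nr3c2 and Nr3c1 in the heterozygotes (SD, n = 5, 12.2% to 14.8%) and 11.4% ± 1.40 in the knockouts (9.59% to 12.6%). The groups overlapped in this share, which was 19.4% ± 1.29 and 16.6% ± 1.93 with counts divided by exonic length. No test was made of it.

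Tsc22d3, or GILZ, is a leucine zipper protein induced by glucocorticoids. The gene lies on chromosome X from 140539529 to 140600522 on the minus strand, in 5 exon intervals. Its level was 244, 251.7, 286, 242 and 240 CPM across heterozygotes 1 to 5 and 339, 329, 324, 351 and 375 CPM across knockouts 1 to 5. Every knockout was above every heterozygote, of which heterozygote 3 was highest. The transcript rose by 0.44 ± 0.0846 on the log2 scale (SE; by edgeR, adjusted p = 0.00220), a ratio of 1.36 with a 95% interval from 1.20 to 1.54. With single animals left out, the log2 fold change ran from 0.41 to 0.49 (edgeR, adjusted p of at most 0.00829), and the call held with the endothelial covariate (edgeR, adjusted p = 0.0290).

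RefSeq gives Tsc22d3 several starts. Reads were counted over the whole gene, so the rise was not assigned to any of them. The promoter of the most upstream of the 3 starts searched is shown (GRCm38.p6, minus strand, 5′ to 3′). It was chosen because it alone among them held a half-site of the glucocorticoid response element, AGAACA. Capitals mark the half-site, which lies on the opposite strand and so reads TGTTCT here, 185 bases before the start.
Tsc22d3, chrX:140600473-140600772: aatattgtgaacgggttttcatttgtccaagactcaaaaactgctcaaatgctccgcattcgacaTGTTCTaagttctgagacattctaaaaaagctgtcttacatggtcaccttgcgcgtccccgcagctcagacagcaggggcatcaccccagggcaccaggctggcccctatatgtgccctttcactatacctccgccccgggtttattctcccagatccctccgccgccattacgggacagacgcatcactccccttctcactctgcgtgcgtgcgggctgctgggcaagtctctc
AGAACA was found in 2 of 10 promoter windows of the hormone genes, this and 1 of Thrb, and in 19% of all promoters. The full palindrome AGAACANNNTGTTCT was found in 0 of 10 windows and in 0.00913% of all promoters. The thyroid hormone half-site AGGTCA was found in 1 of 10 windows, of Thrb, and in 16.3% of all, and its direct repeat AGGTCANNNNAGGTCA in 0 of 10 and in 0.0152% of all.

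Fkbp5, which encodes an Hsp90 cochaperone that lowers the hormone affinity of the glucocorticoid receptor and is itself induced by glucocorticoids, lies on chromosome 17 from 28399095 to 28486112 on the minus strand, in 11 exon intervals. Heterozygotes 1 to 5 had 6.34, 6.39, 6.28, 8.21 and 3.74 CPM, and knockouts 1 to 5 had 6.56, 5.27, 4.49, 6.16 and 9.51 CPM. The groups overlapped throughout, with heterozygote 5 lowest and knockout 5 highest. The log2 fold change was 0.06 ± 0.238 (SE, adjusted p = 0.895 by edgeR), and the 95% interval of the ratio, 0.732 to 1.48, includes the ratio measured for Tsc22d3.

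Among 20 further genes known to be induced by glucocorticoids, 18 were tested, of which 2 were called higher and 1 lower (10.2% and 8.64% of all tested genes), with a median log2 fold change of -0.14. These shares are near those of all genes. Ptgds, a prostaglandin D synthase, rose from 32.4 ± 6.13 CPM (27.1 to 42.2) to 86.3 ± 22.5 CPM (69.3 to 121), a log2 fold change of 1.42 ± 0.171 (SE, adjusted p = 6.26e-05 by edgeR). Glul, glutamine synthetase, rose from 35.2 ± 6.30 to 66.8 ± 19.98 CPM without overlap (adjusted p = 0.00346 by edgeR). Dusp1, a phosphatase of MAP kinases, fell from 332 ± 106 to 198 ± 42.9 CPM with overlap (adjusted p = 0.0193 by edgeR), and lost its call without knockout 2 (edgeR, adjusted p = 0.0517). Without that animal the list held 2 calls, both higher. Without heterozygote 2 it held 5 in place of 3, of which 2 were higher and 3 lower, so that the balance of the calls turned.

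Pdk4, which restrains pyruvate oxidation, was at 1610 ± 423 and 1126 ± 321 CPM and was not called (edgeR, adjusted p = 0.101). It was called lower by DESeq2 (adjusted p = 0.0446) and voom (adjusted p = 0.0149), and by edgeR without heterozygote 2 (adjusted p = 0.0146) or knockout 5 (adjusted p = 0.0282). Per1 and Zbtb16, both strongly glucocorticoid-induced in many tissues, were named after their values were seen. Per1 was at 22.4 ± 12.3 and 21.3 ± 14.2 CPM (edgeR, adjusted p = 0.949), and Zbtb16 at 32.9 ± 18.4 and 35.8 ± 18.8 CPM (edgeR, adjusted p = 0.835). Their spread between animals of a group was wide, from 14.1 to 42.4 CPM for Per1 and from 13.9 to 61.6 CPM for Zbtb16 in the heterozygotes alone.

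Of 9 corticosteroid receptor chaperones, 1 was called higher and 2 lower (10.2% and 8.64% of all tested genes), and the median log2 fold change was -0.08. The inducible Hsp90 gene Hsp90aa1 rose from 64.6 ± 14.7 to 103 ± 15.7 CPM (adjusted p = 0.00587 by edgeR), while the constitutive Hsp90ab1 was at 913 ± 76.9 and 916 ± 34.9 CPM and was not called (edgeR, adjusted p = 0.975). Fkbp4, the cochaperone that competes with Fkbp5 and favours hormone binding, fell from 459 ± 130 to 295 ± 36.2 CPM (adjusted p = 0.0119 by edgeR). Bag1, a cochaperone of Hsp70, fell from 274 ± 37.6 to 212 ± 9.48 CPM (adjusted p = 0.0168 by edgeR). None of these 3 called genes overlapped between the groups (8.41% of all tested genes were higher and 6.32% lower without overlap). With the endothelial covariate, Fkbp4 was still called, and Hsp90aa1 (edgeR, adjusted p = 0.0643) and Bag1 (edgeR, adjusted p = 0.0632) were not.

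Only 2 of 7 genes of corticosteroid metabolism could be tested, and 0 were called by edgeR, DESeq2 or voom, with 0 at an unadjusted p below 0.05 in edgeR. H6pd, which supplies NADPH to the enzyme that regenerates active glucocorticoid, was at 37.6 ± 7.93 and 32.1 ± 6.16 CPM (edgeR, adjusted p = 0.344). That enzyme, Hsd11b1, had at most 10 counts in an animal, and the glucocorticoid-inactivating Hsd11b2 and the adrenal synthases Cyp11b1 and Cyp11b2 had 0 in every animal. Of 9 genes that mineralocorticoids induce in epithelia, 6 were tested. DESeq2 and voom called 0. The edgeR fit with the filter, TMM scaling, all animals and no block or covariate also called 0, with 1 at an unadjusted p below 0.05. That was Sgk1, a kinase that glucocorticoids induce too, at 75.5 ± 36.1 and 43.8 ± 11.9 CPM (edgeR, adjusted p = 0.0555), named after its value was seen. Sgk1 was called lower in 7 alternatives (edgeR, adjusted p = 0.00607 to 0.0473). These were upper-quartile scaling, no filter, the replicate number as a block, and the fits without heterozygote 1, 2 or 5 or knockout 4. The sodium channel subunits Scnn1b and Scnn1g had 0 counts in every animal, and Ndrg2 was at 1540 ± 240 and 1530 ± 123 CPM (edgeR, adjusted p = 0.967).

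Clock genes were followed because glucocorticoids act on them and because the time of day at collection is not given in the sources used here. Of 13 tested, 2 were called higher and 0 lower (10.2% and 8.64% of all tested genes), with a median log2 fold change of 0.20. Clock itself rose from 51.7 ± 8.14 to 70.1 ± 3.84 CPM without overlap (adjusted p = 0.0124 by edgeR), and Per2, a repressor of the clock, rose from 9.94 ± 1.30 to 17.5 ± 6.24 CPM with overlap (adjusted p = 0.0158 by edgeR). Neither was called with the endothelial covariate (edgeR, adjusted p = 0.0635 for Clock and 0.135 for Per2). Tef, an output factor of the clock, was at 107 ± 27.6 and 124 ± 17.04 CPM (edgeR, adjusted p = 0.386).

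The genes whose log2 CPM followed a hormone gene most closely over the 10 animals were sought among 8369 genes by Pearson's r, given as a description since both groups and all libraries are shared by the points. For Slc16a10 they were Adi1, an enzyme of methionine salvage (r = 0.975), and Hspa9, the mitochondrial Hsp70 (r = 0.971). For Nr3c1 they were Tstd2 (r = 0.976) and the retinoic acid receptor Rarb (r = 0.970). For Tsc22d3 they were Atg13, of the autophagy initiation complex (r = 0.980), and Slc37a1 (r = 0.974). Of these 6, Adi1 and Hspa9 were called lower (edgeR, adjusted p = 0.0267 and 0.00244), Atg13 and Slc37a1 were called higher (edgeR, adjusted p = 0.000587 and 0.000392), and Tstd2 and Rarb were not called (edgeR, adjusted p = 0.0943 and 0.164).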

How the data were processed

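RNA of sorted cardiomyocytes from 5 Actn2 knockout and 5 heterozygote mice was measured. The deposited counts are whole reads per gene, made by the authors with featureCounts 1.5.1 with 4 threads and no other option, per the file headers, against a UCSC mm10 annotation; the same file gives the exonic length. Such counting ignores strand and drops multi-mapping reads and reads over more than 1 gene. The series text names STAR, and the submitters' processing notes list STAR 2.5.3a and Subread 1.5.2; the alignment files bear the default name of another aligner, which leaves the aligner uncertain. Also in the table are 4 columns of counts that match no sample of the series, not used here. The gene lists and the 9 genes were chosen with earlier results of these data known.

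Genes were kept by edgeR's filterByExpr (minimum count 10, minimum total 15), scaled by TMM and tested with the quasi-likelihood F test of edgeR 4.0.16 in R 4.3.3, with Benjamini-Hochberg adjustment over all 11870 tested genes. CPM uses TMM-scaled totals, and log2 CPM a prior count of 1. The SE is the size of the log2 fold change divided by the square root of F. The procedure was run on simulated counts, drawn with the spread fitted to these data and with few genes changed, as many up as down. It is therefore no check of the scaling or of that spread. Total counts were 8086656 to 25237696 per library, and Wilson 95% intervals and floors of 3 counts cover counting error only. The series text calls the samples biological replicates. The p-values set the difference between the groups against the spread between these samples, which is estimated in part over all genes. Named were Actn2, the 9 genes, every called gene of the lists (1 is not reported here, nor is 1 uncalled gene, though list counts and medians include both), those of the highest mean among the uncalled in each list (up to 4, of which 1 or 2 are given), and the 2 genes most alike to each called gene with a mean of at least 10 CPM; Per1, Zbtb16 and Sgk1 were added after their values were seen. Alternatives were RLE, upper-quartile and library-total scaling, no filter, the replicate number as a block, a minimum mean of 5 CPM, endothelial marker and Y-linked expression as covariates, DESeq2 1.42.0, voom of limma 3.58.1 with sample weights, shares per length, and leaving out each animal. Promoters came from RefSeq (GRCm38.p6), with 7 of 9 genes matched in 10 windows.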

Additional observations from a re-analysis of the deposited data

Results flagged for a closer look

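In 5 of 38 groups of values examined, the highest animal stood apart from the other 4 by more than Dixon's 95% critical value, while chance gives about 1 group in 20. Tsc22d3 in heterozygote 3 was 286 CPM, with the next heterozygote at 251.7. The total count of heterozygote 1 was 25237696, against 10309615 for the next. The summed cardiomyocyte markers of knockout 1 were 116495 CPM, against 98265 for the next knockout. The summed leukocyte markers of heterozygote 3 were 35.2 CPM, with the next heterozygote at 18.1. The summed atrial markers of knockout 5 were 335 CPM, against 81.8 for the next knockout.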

How the results depend on the processing

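Of the 8 hormone genes tested, Thrb and Tsc22d3 changed neither sign nor call in any alternative, and the same held for 13 of 25 called list genes. Low counts limit Dio2, which the filter at a mean of 5 CPM removes, and Dio3. With the endothelial markers as a covariate, 1368 genes were called in place of 2241, and 1259 of them were among the 2241. Of the hormone genes 1 was then called, with Slc16a10 at -0.50, Dio2 at 1.68 and Nr3c1 at 0.36 no longer called, and Thra and Nr3c2 turned to -0.12 and -0.084. That fit left 1 call among genes lowered by thyroid hormone, 1 among chaperones and 0 among clock genes. It also turned Slc3a2 to 0.042, Hsp90ab1 to -0.057, Per1 to 0.16, Zbtb16 to -0.083 and Tef to -0.013. The cause was not tested.

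Nr3c1 lost its call at 0.30 with RLE, 0.28 with upper-quartile scaling, 0.31 with no filter, 0.31 with the replicate block and 0.28 with the Y-linked covariate. Nr3c2 turned to -0.0041 with upper-quartile scaling and -0.073 with voom. Among genes that were not called, Ncor1 turned to -0.0069, -0.023 and -0.0050 with RLE, upper-quartile scaling and DESeq2, and Hsp90ab1 to -0.0074, -0.023 and -0.0072. Hsp90ab1 was -0.00046 with the filter at 5 CPM. Library totals turned Myh6 to 0.044, Per1 to 0.036 and Ndrg2 to 0.075, and the Y-linked covariate turned Per1 to 0.064. DESeq2 called 2 transport genes. Upper-quartile scaling, no filter and the block each called 1 mineralocorticoid-induced gene, Sgk1, lower.

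With the replicate number as a block, 2182 genes were called, of which 1961 were shared with the 2241. They held 3 hormone genes and 6 glucocorticoid-induced genes, of which 2 were higher and 4 lower (Dusp1, Mt1, Pdk4 and Sgk1). Ncoa2 (adjusted p = 0.0638 by edgeR) and Thrsp (adjusted p = 0.0620 by edgeR) were not called, and Ndrg2 turned to 0.0030. Deviations of same-numbered animals correlated at 0.11, -0.012, -0.060, 0.19 and 0.14, and not every animal was most like its own number, so the numbers were not taken to pair them.

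Leaving out single animals gave 1699 to 2258 calls over all genes and 3 to 4 among the hormone genes. The log2 fold changes ranged from -0.64 to -0.49 for Slc16a10, 1.47 to 1.95 for Dio2, 0.26 to 0.36 for Nr3c1, -0.061 to 0.091 for Nr3c2, and -0.14 to 0.18 for Fkbp5. For uncalled list genes they ranged from -0.34 to 0.062 for Slc3a2, -0.027 to 0.025 for Ncor1, -0.12 to 0.089 for Myh6, -0.20 to 0.017 for Pln, -0.021 to 0.053 for Hsp90ab1, -0.35 to 0.30 for Per1, -0.19 to 0.50 for Zbtb16 and -0.097 to 0.052 for Ndrg2. Calls ranged from 2 to 5 for glucocorticoid-induced and 0 to 1 for mineralocorticoid-induced genes.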
